A study of Mus musculus with 12 samples.

Results

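The genes described here encode 10 secreted proteins of the extracellular matrix: fibronectin (Fn1), thrombospondins 1 and 2 (Thbs1, Thbs2), tenascin C (Tnc), periostin (Postn), SPARC (Sparc), versican (Vcan), elastin (Eln) and fibrillins 1 and 2 (Fbn1, Fbn2). They were chosen by name as abundant matrix glycoproteins and elastic fibre proteins, some with fetal and adult forms. Earlier results of these data were known at that choice. The 10 genes were picked out of 23329 listed genes by their symbols, and all 10 were among the 13038 genes that passed the filter on low counts. Versican and fibrillin 2 had the lowest levels per length of the 10 in both stages, as given below, so the word abundant did not hold for every member.

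The data came from polyA-selected, strand-specific RNA-seq of stromal cells grown from mouse small intestine, which the labels call intestinal myofibroblasts. The study compared how embryonic and adult stroma respond to bacterial lipopolysaccharide (LPS), a cell wall component of Gram-negative bacteria that is sensed through Tlr4. The 4 groups were embryonic PBS, embryonic LPS, adult PBS and adult LPS, with 3 libraries each. Embryonic cells came from E14.5 gut, and adult cells from adult mice whose exact age was not given in the sources used here. All groups shared the removal of the epithelium, collagenase and dispase digestion, growth to confluence, and use at passage 2 or 3. LPS from Escherichia coli O111:B4 was given at 10 µg/µl for 6 h, where the unit is that of the labels and may be a slip for µg/ml, and PBS was the vehicle. An embryonic culture pooled 6 embryos and the adult cultures came from 3 mice, so a library is an average over cells and, in the embryo, over animals. Within a stage, an LPS and a PBS library with 1 number are called here a culture (1, 2 or 3), because their deviations from the group means ran together.

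The matrix glycoproteins fill several roles. Fibronectin is assembled by integrins into fibrils on which other matrix proteins are laid down. Thrombospondins, tenascin C, periostin and SPARC are matricellular proteins, which act on cell adhesion, growth factor activity and matrix assembly more than as scaffolds. Versican is a large chondroitin sulphate proteoglycan that binds hyaluronan, while fibrillin microfibrils form the template on which elastin is deposited in elastic fibres.

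Gene counts ranged from 18850224 to 32672370 per library, so that 3 counts, the smallest level taken as detected, were between 0.0907 and 0.145 CPM, the unit of counts scaled to a common library total with TMM factors. The smooth muscle and myofibroblast markers fitted the label, with a summed level of 14258 to 37160 CPM and Acta2 between 6619 and 14971 CPM. Epcam, which marks epithelial cells, was at most 0.487 CPM in any library. The list of epithelial markers that holds it summed to between 19.6 CPM (embryonic LPS culture 3) and 117 CPM (adult PBS culture 1). Macrophage and leukocyte markers (9 of 10 found) summed to 176 to 2254 CPM in embryonic PBS, 132 to 1513 CPM in embryonic LPS, 17.7 to 164 CPM in adult PBS and at most 175 CPM in adult LPS libraries, with none of the 9 at 0 counts. Adult culture 2 held 1753 and 1686 CPM of endothelial markers against at most 369 CPM elsewhere. Nfkbia and Cxcl1, which LPS signalling is known to induce, passed the test in both stages. With Il6, the other control gene chosen, 3 of 3 passed in embryonic stroma. In adult stroma 2 of the 3 passed, or all 3 once the culture was a block in the model. Embryonic culture 2 stood apart in several of the matrix genes, and the stage differences of the genes it touched most are given with and without it. In these bulk samples, fewer cells of a type and less RNA per cell cannot be told apart.

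The sequences before a transcript start of versican, periostin and thrombospondin 2 are shown for 2 reasons. Versican was the member that passed the test for LPS once the culture was a block in the model. Periostin and thrombospondin 2 followed each other most closely across the libraries. Both were far lowest in embryonic culture 2, so that closeness rests in part on this culture. RefSeq windows of GRCm38.p6 were on hand for 6 of the 10 members: Fbn1, Postn, Tnc, Sparc, Vcan and Thbs2. Each sequence below is the 250 bases before a transcript start, written 5′ to 3′ on the strand of the gene, and none overlapped a GENCODE exon. The Vcan and Postn windows lie inside the span of the gene as RefSeq gives it, while the Thbs2 window lies before it. Periostin had a pair of windows, and the one shown was chosen because it held the matches. Capitals mark matches on either strand to GGGNNNNNCC, a loose form of the NF-kB site, or to TATAAA.
Vcan, chr13:89742513-89742762, minus strand: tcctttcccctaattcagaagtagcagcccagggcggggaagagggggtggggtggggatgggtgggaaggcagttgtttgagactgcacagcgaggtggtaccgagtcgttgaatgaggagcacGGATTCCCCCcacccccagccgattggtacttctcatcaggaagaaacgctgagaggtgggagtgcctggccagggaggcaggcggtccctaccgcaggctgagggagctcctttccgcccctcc
Postn, chr3:54360857-54361106, plus strand: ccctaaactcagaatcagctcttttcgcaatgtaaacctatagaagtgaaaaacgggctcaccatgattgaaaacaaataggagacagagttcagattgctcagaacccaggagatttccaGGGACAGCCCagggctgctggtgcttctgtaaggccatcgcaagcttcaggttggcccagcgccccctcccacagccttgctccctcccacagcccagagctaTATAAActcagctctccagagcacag
Thbs2, chr17:14694263-14694512, minus strand: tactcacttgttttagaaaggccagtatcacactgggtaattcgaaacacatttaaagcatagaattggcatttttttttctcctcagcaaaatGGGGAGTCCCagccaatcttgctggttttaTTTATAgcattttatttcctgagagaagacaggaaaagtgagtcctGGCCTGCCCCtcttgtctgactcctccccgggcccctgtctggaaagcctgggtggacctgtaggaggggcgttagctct

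The versican window held 1 match to the loose NF-kB form and none to TATAAA. The periostin window held 1 of each, and the thrombospondin 2 window held 2 matches to the NF-kB form and 1 to TATAAA. Among 32851 windows of the same length, 45.8% held the loose NF-kB form and 12.4% held TATAAA, so these matches are common. The AP-1 letters TGANTCA and the TEAD letters GGAATG, found in 6.75% and 12.6% of all windows, had no match in the windows of the 6 members. A match is only a run of letters, and the absence of one says nothing about the factor.

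The 10 genes together took 3.77% to 4.93% of all gene counts, with no separation between the groups. Fn1, Thbs1 and Sparc alone made up 79.4% to 93.8% of that share. On the CPM scale Fn1 ranked 1st of all listed genes in embryonic PBS and Thbs1 ranked 1st in adult PBS.

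**Figure D1:**
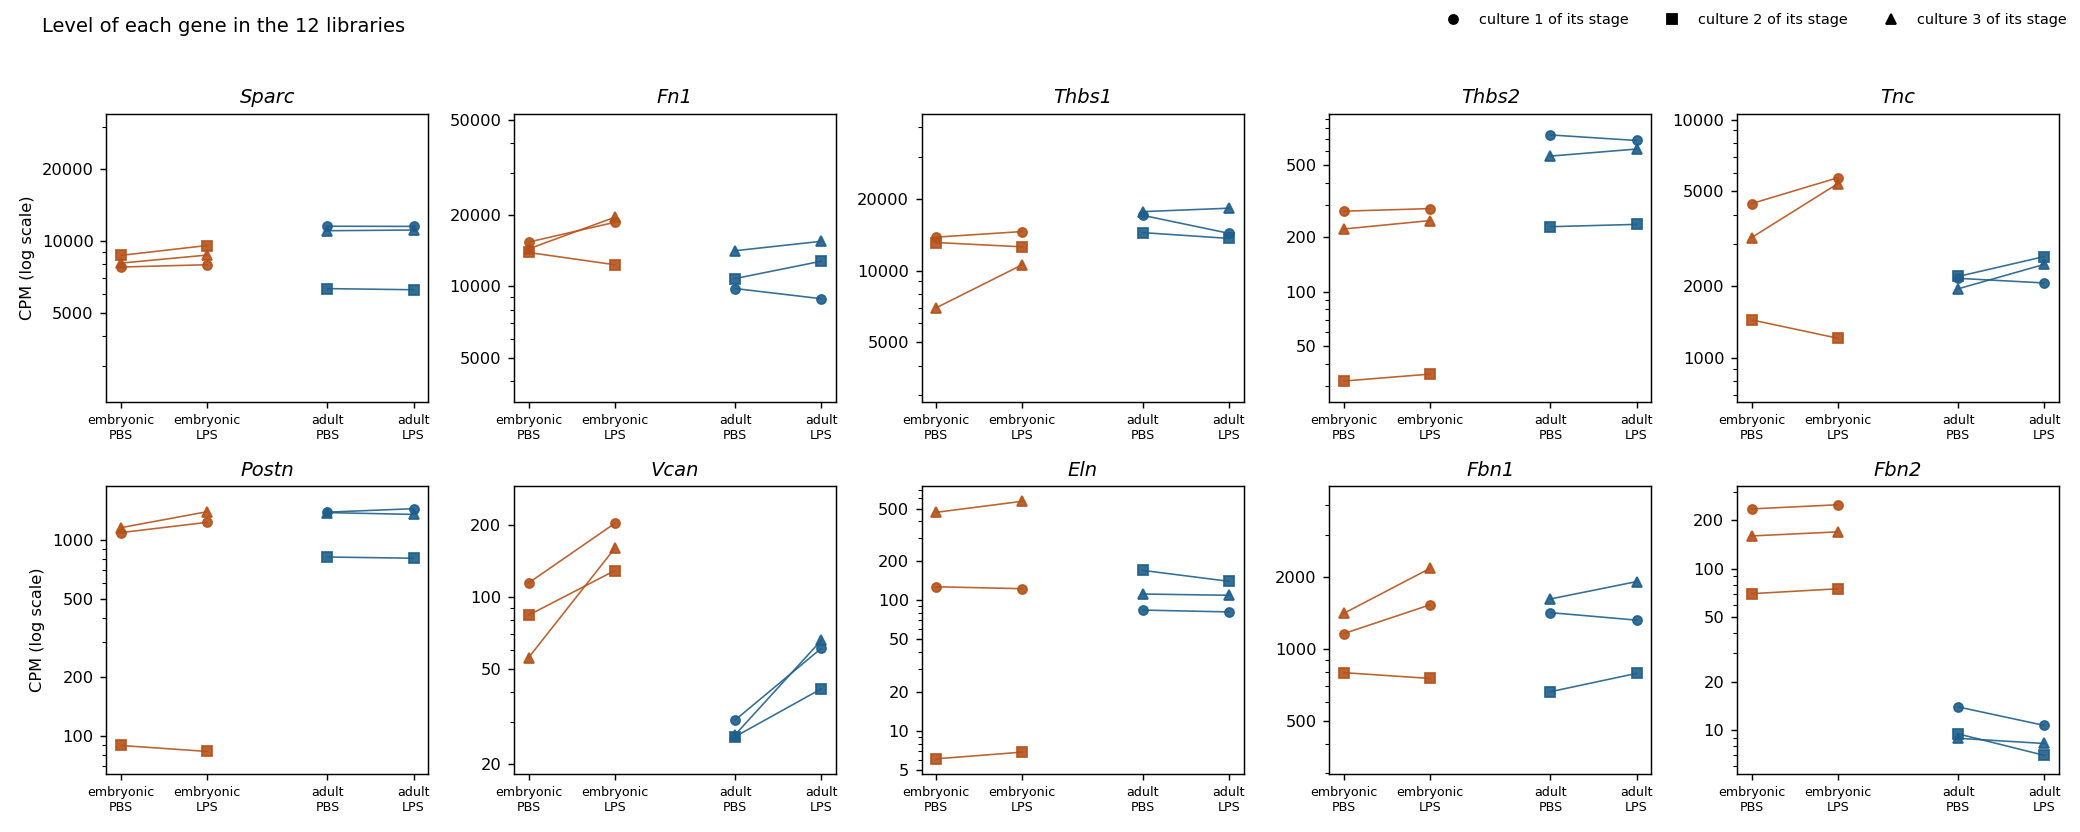
Level of each gene in CPM (vertical log axes, each with its own limits) in the 12 libraries, by group (horizontal), with orange for embryonic and blue for adult stroma and lines joining the PBS and LPS libraries of a culture. Vcan lies higher with LPS in every culture, Fbn2 is higher in every embryonic than in any adult library, and culture 2 of the embryonic stroma is lowest for Fn1, Thbs2, Tnc, Postn, Eln, Fbn1 and Fbn2 in both treatments.

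To compare the levels of different genes, CPM were divided by the length of the exons in kb. In embryonic PBS the order of the mean levels was Sparc (3010 ± 174 CPM per kb, SD, n = 3), Thbs1, Fn1, Tnc, Postn, Fbn1, Eln, Thbs2, Fbn2 and Vcan (6.31 ± 2.19 CPM per kb). Only 2 steps of that order were wider than the spread of the libraries, from Sparc down to Thbs1 and from Fn1 down to Tnc, and all other neighbours overlapped. In adult PBS the order was Sparc (3540 ± 1059 CPM per kb), Thbs1, Fn1, Postn, Tnc, Fbn1, Thbs2, Eln, Vcan (2.06 ± 0.185 CPM per kb) and Fbn2 (0.978 ± 0.249 CPM per kb). There the neighbours overlapped for Sparc and Thbs1, Postn and Tnc, Fbn1 and Thbs2, and Thbs2 and Eln, and were separate at the other steps. Fibrillin 2 thus lay at the bottom of the adult order, below versican.

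Versican was the member that changed with LPS, in the edgeR model with the culture as a block and in DESeq2 without a block, and not in the edgeR model without it. In embryonic stroma its levels with PBS were 114, 83.8 and 55.6 CPM in cultures 1, 2 and 3, and with LPS they were 203, 129 and 160 CPM. In the adult cultures they were 30.5, 25.9 and 26.4 CPM with PBS and 60.8, 41.1 and 65.7 CPM with LPS. All LPS libraries lay above all PBS libraries of their stage, and all 6 cultures were higher with LPS, by 0.62 to 1.52 on the log2 scale in embryonic and 0.66 to 1.31 in adult stroma. Library ranges were likewise separate, in either direction, for 11.9% of all tested genes in embryonic and 14.6% in adult stroma.

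For embryonic versican the fitted log2 fold change was 0.97 (standard error 0.27, 1.97-fold) and was not called (edgeR quasi-likelihood adjusted p = 0.102, Benjamini-Hochberg over the 13038 genes). For adult versican it was 1.03 (standard error 0.27, 2.04-fold), also not called (edgeR adjusted p = 0.185). With the culture as a block in the model, versican rose in both stages: by 1.01 (standard error 0.17, adjusted p = 0.00797, edgeR) in embryonic and by 1.00 (standard error 0.18, adjusted p = 0.0167) in adult stroma. The adult call was lost without culture 1 (adjusted p = 0.130) and without culture 3 (adjusted p = 0.176, edgeR with the block). The log2 fold change stayed at 1.00 and 0.82. All genes called in that comparison also fell, from 808 to 270 without adult culture 1 and to 232 without adult culture 3. The embryonic call held without any 1 culture, with adjusted p-values up to 0.0285.

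A difference in the size of the response between the stages was not detectable. The log2 difference between the embryonic and adult responses of versican was -0.05 (95% interval -0.88 to 0.78), and 0.01 (-0.57 to 0.59) with the block.

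In edgeR without the block no member was called for LPS in either stage, and versican alone had an unadjusted p under 0.05, against 2.75% of all tested genes called in embryonic and 0.606% in adult stroma. DESeq2 without a block called versican and no other member in each stage, against 5.25% and 2.25% of all tested genes. With the block, 1 of 10 members was called in each stage, versican in both cases, against 12.5% and 6.2% of all tested genes. The members' share called was therefore near the background in both stages. The median log2 fold change with the block was 0.18 over the 10 members and 0.00 over all tested genes in embryonic stroma, and 0.02 and -0.01 in adult stroma. In the edgeR test of the difference between the responses, 0 members and 0% of all genes were called without the block, where 0 members and 293 of all genes had an unadjusted p under 0.05 and DESeq2 called 0 members and 25 of all genes (0.192%). With the block, 0 members and 0.844% of all genes were called, and 1 member, Fbn2, and 1163 of all 13038 genes had an unadjusted p under 0.05.

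**Figure D2:**
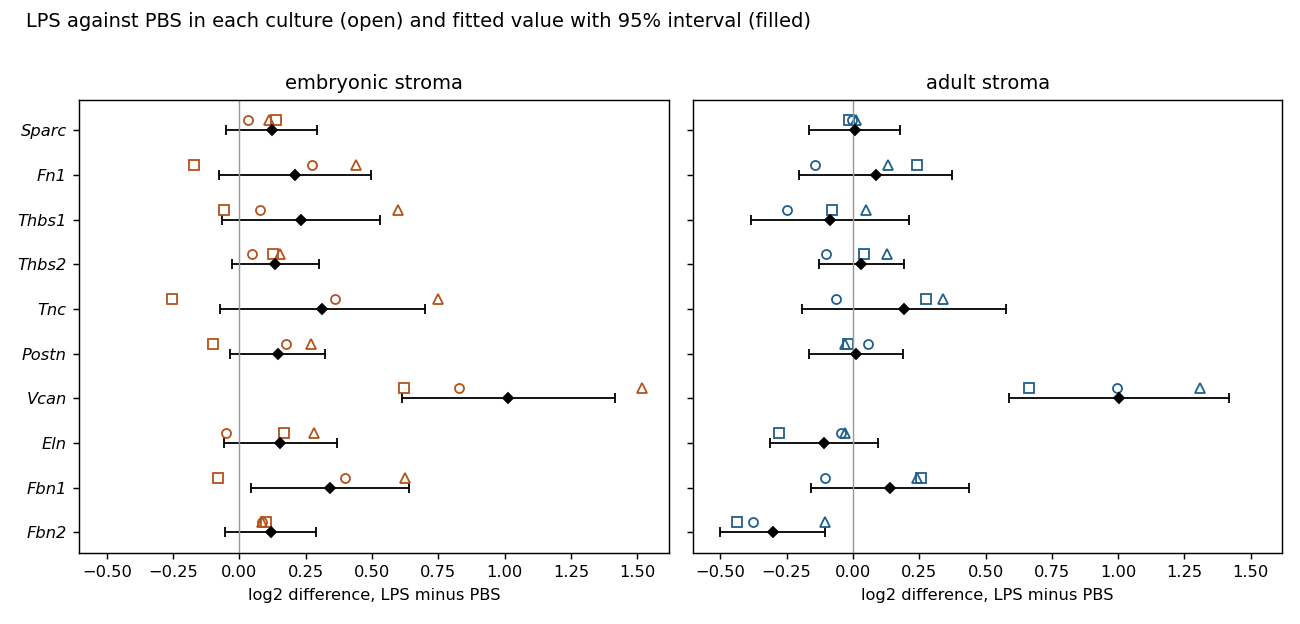
Log2 difference of LPS minus PBS (horizontal) for each gene (vertical) in embryonic (left) and adult stroma (right). Open symbols are the cultures (circle 1, square 2, triangle 3), and filled diamonds are the fitted values with the block and their 95% intervals. The fitted value of Vcan stands apart at about 1 in both stages, while those of the other 9 genes lie between -0.30 and 0.34. Single cultures spread wider, up to 0.75 for Tnc.

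The 9 other members had fitted log2 fold changes with the block between 0.12 (Fbn2) and 0.34 (Fbn1) in embryonic stroma, all above 0, and between -0.30 (Fbn2) and 0.19 (Tnc) in adult stroma, with 6 above 0 and 3 below. With library totals in place of TMM factors, embryonic Sparc, Thbs2, Fbn2 and Eln and adult Sparc, Thbs2 and Postn lay just below 0, so the signs of such small changes depend on the scaling. None was called. Sparc, a collagen-binding matricellular protein, had 95% intervals of -0.05 to 0.29 in embryonic and -0.17 to 0.18 in adult stroma, and Fn1 had -0.08 to 0.50 and -0.20 to 0.37.

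Fibrillin 1, the main microfibril protein after birth, had levels of 1157, 794 and 1408 CPM with PBS and 1527, 751 and 2171 CPM with LPS in embryonic cultures 1, 2 and 3. The ranges overlapped, and cultures 1 and 3 were higher with LPS while culture 2 was lower. Its log2 fold change with the block was 0.34 (95% interval 0.05 to 0.64), which did not pass the adjustment (edgeR adjusted p = 0.134). Tenascin C, a matricellular protein of developing and injured tissue, had the same pattern, with 4446, 1448 and 3203 CPM with PBS and 5703, 1213 and 5386 CPM with LPS. Its log2 fold change with the block was 0.31 (standard error 0.17, edgeR adjusted p = 0.282). Without embryonic culture 2 both genes passed the edgeR test with the block, at log2 fold changes of 0.52 for Fbn1 (adjusted p = 0.019) and 0.56 for Tnc (adjusted p = 0.0271). In that setting 3 of 10 members were called in embryonic stroma, against 15% of all genes tested. It leaves out the culture in which both genes were lower with LPS, so higher values follow from that choice and do not test a rise. Without embryonic culture 1 or culture 3, versican was the 1 member called.

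Fibrillin 2, the microfibril protein of the embryo, had small LPS differences of opposite sign in the 2 stages. With TMM factors it was higher with LPS in all 3 embryonic cultures, by 0.08 to 0.10 on the log2 scale. It was lower in all 3 adult cultures, by amounts from -0.44 to -0.11. With library totals in place of TMM factors the embryonic log2 fold change was -0.032 (edgeR without the block), so its sign depends on the scaling. How many of all tested genes had such opposite cultures was not counted. The difference between the 2 responses was 0.42 with the block (standard error 0.11, unadjusted p = 0.00639), and was not called (edgeR adjusted p = 0.263). The adult change alone was -0.30 (edgeR with the block, adjusted p = 0.0956).

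Several genes that act with versican rose with LPS, while the proteases Adamts1 and Adamts5 did not. The list of the versican and hyaluronan network held 18 genes, of which 9 were tested: hyaluronan synthases, hyaluronan-binding proteins and the ADAMTS proteases that cleave versican. Has1 and Bcan passed the filter on low counts through 1 group alone, embryonic LPS and adult PBS, and are left out of the counts. With the block, 3 of the other 7 rose in each stage and none fell, against 12.5% of all tested genes called in embryonic (9.43% higher) and 6.2% in adult stroma (4.69% higher). The median log2 fold change of the 7 was 0.94 in the embryonic and 1.3 in the adult cultures, against 0.00 and -0.01 over all tested genes. This list and the other related lists were chosen with earlier results of these data known. The shares set beside the background therefore describe the lists and do not test them. Without the block 1 of the 7 was called in each stage, Adamts4 in embryonic stroma and Adamts9 in adult stroma. The hyaluronan-binding Tnfaip6 was called in neither stage. Its means with PBS and LPS were 1.78 and 3.56 CPM in embryonic and 3.32 and 4.14 CPM in adult stroma.

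**Figure D3:**
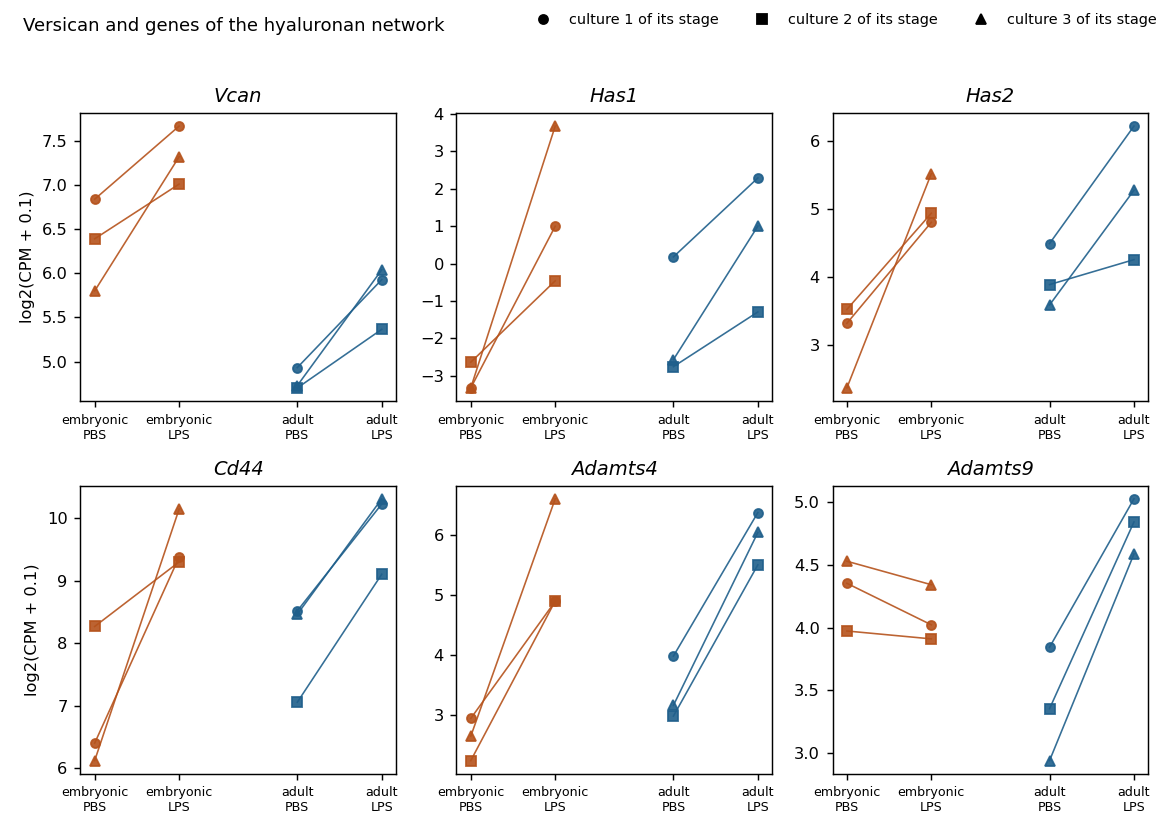
Level of Vcan, the hyaluronan synthases Has1 and Has2, the hyaluronan receptor Cd44 and the versican-cleaving proteases Adamts4 and Adamts9 as log2(CPM + 0.1) (vertical, each panel on its own scale) by group (horizontal), with lines joining PBS and LPS libraries of a culture (orange embryonic, blue adult). All lines rise except those of Adamts9 in the 3 embryonic cultures. Tested genes of the same list that are not drawn are the proteases Adamts1 and Adamts5, which did not rise, Tnfaip6, which was not called for LPS, and Bcan.

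Adamts4, an aggrecanase that also cuts versican, was at 7.60, 4.63 and 6.17 CPM with PBS and 29.7, 29.8 and 97.2 CPM with LPS in embryonic cultures 1, 2 and 3. In adult cultures it was at 15.7, 7.81 and 8.86 CPM and at 82.9, 45.3 and 65.9 CPM. The LPS libraries lay above the PBS libraries in both stages. Its log2 fold change was 3.11 (edgeR adjusted p = 0.0104) for embryonic and 2.59 (adjusted p = 0.0520) for adult cultures without the block, and Adamts4 rose in both stages with it (adjusted p = 0.00114 and 0.00298).

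Adamts9, another protease of the same family, did not follow the same pattern in both stages. In adult cultures it was at 14.2, 10.1 and 7.58 CPM with PBS and 32.4, 28.5 and 23.9 CPM with LPS, with no overlap. In embryonic cultures it was at 20.3, 15.6 and 23.0 CPM with PBS and 16.1, 14.9 and 20.2 CPM with LPS. Adamts9 rose in adult stroma by 1.42 on the log2 scale (edgeR adjusted p = 0.0315). The difference of the responses, embryonic minus adult, was -1.62 with the block (edgeR adjusted p = 0.0055) and -1.59 without it (adjusted p = 0.968). Adamts1 and Adamts5, the more abundant proteases of the list, had lower means after LPS in both stages. Mean Adamts5 went from 356 to 316 CPM in the embryo and from 423 to 329 CPM in the adult. For Adamts1 the means went from 105 to 92.3 CPM and from 200 to 165 CPM. Their library ranges overlapped, and neither gene was called for LPS.

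Hyaluronan synthase 1 (Has1) had at most 2 counts in any embryonic PBS library and 1.89, 0.626 and 12.6 CPM in embryonic LPS cultures 1, 2 and 3. The embryonic LPS mean was at least 55.5-fold higher, against a floor of 3 counts per library, or at least 13.9-fold without culture 3. Has1 was tested because it passed the filter in embryonic LPS, so its embryonic difference is given with no test. Has1 in adult stroma was at 1.03, 0.0482 and 0.0689 CPM with PBS and 4.78, 0.308 and 1.90 CPM with LPS. The adult ranges overlapped because culture 1 was high in both treatments, and Has1 rose there by 2.82 on the log2 scale with the block (edgeR adjusted p = 0.0408). Adult PBS cultures 2 and 3 lay below the floor of 3 counts, so both the size and the call of that rise are uncertain. Without the block Has1 was not called in adult stroma.

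Has2, the synthase that makes most hyaluronan in the embryo, was at 9.87, 11.4 and 5.05 CPM with PBS and 27.9, 30.6 and 45.9 CPM with LPS in the embryonic cultures, and rose by 2.03 with the block (edgeR adjusted p = 0.0126). In the adult cultures it was at 22.4, 14.7 and 11.9 CPM with PBS and 74.7, 19 and 38.7 CPM with LPS, and was not called (log2 fold change 1.3 with the block, edgeR adjusted p = 0.0998). Cd44, the main cell surface receptor for hyaluronan, was at 84.5, 308 and 69.6 CPM with PBS and 663, 629 and 1128 CPM with LPS in embryonic cultures. With the block it rose by 2.72 and, in the adult, by 1.87 (edgeR adjusted p = 0.00984 and 0.0499). Cd44 is also carried by leukocytes. Of the 9 macrophage and leukocyte markers in embryonic stroma, with the block, Ptprc was higher with LPS by 1.84 on the log2 scale (edgeR adjusted p = 0.00283), Cx3cr1 was lower at -2.82 (adjusted p = 0.00155) and 7 were not called, with a median of -0.05 over the 9. The part of these cells in the Cd44 rise was not tested.

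Among 14 receptors for matrix proteins, all tested, Itgb6 passed the filter on low counts through embryonic LPS alone and is left out of the counts. Of the other 13, with the block, 4 rose with LPS in embryonic and 3 in adult stroma, and none fell, against 9.43% and 4.69% of all tested genes called higher. Cd47, a receptor of thrombospondin 1, rose in both stages, by 1.75 (edgeR adjusted p = 0.000635) and 1.00 (adjusted p = 0.0174). Syndecan 4 (Sdc4), a fibronectin co-receptor, also rose in both, by 2.20 and 1.59 (edgeR adjusted p = 0.0038 and 0.0238). The integrin chains Itga4 and Itgb8 rose in embryonic stroma and Itgav in adult stroma. Itgb8 had only 2 to 18 counts in the embryonic PBS libraries, so the size of its rise is uncertain. Without the block, Cd47 in embryonic stroma was the receptor that passed the test (edgeR adjusted p = 0.0277).

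Spp1, which encodes osteopontin, was the 1 gene that rose with LPS among 12 tested genes of the other matricellular families, beside the 9.43% of all tested genes called higher in embryonic and 4.69% in adult stroma, by 1.42 in embryonic and 1.29 in adult stroma with the block (edgeR adjusted p = 0.00159 and 0.00727). Among 18 tested genes of elastic fibre assembly, 1 was called with LPS in embryonic stroma, below the 12.5% of all tested genes: Ltbp2, a fibrillin-binding protein, rose by 0.51 (edgeR with the block, adjusted p = 0.0026). No gene of that list was called in adult stroma.

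Embryonic and adult stroma differed in 2 of the 10 members, fibrillin 2 and versican, both higher in the embryo and both with PBS and with LPS. The background was 4.08% of all tested genes called with PBS and 5.31% with LPS, in either direction. The comparisons with PBS and with LPS use separate libraries of the same 6 cultures, so they are not independent. In the fit of all 12 libraries the LPS and PBS libraries of a culture count as separate, although their deviations ran together. With each treatment fitted alone, 1 member was called in each, Fbn2, against 1.36% of all tested genes with PBS and 0.546% with LPS. The median log2 difference of the members, embryonic minus adult, was 0.10 with PBS and 0.30 with LPS, against 0.02 in both over all tested genes.

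Fbn2 was at 235, 70.2 and 160 CPM in embryonic PBS cultures 1, 2 and 3 and at 250, 75.3 and 170 CPM with LPS. The adult levels were 14, 9.5 and 8.92 CPM with PBS and 10.7, 7.0 and 8.28 CPM with LPS. The lowest embryonic library lay above the highest adult library. Library ranges were separate for 24.5% of all tested genes with PBS and 25.3% with LPS. The fold difference was 14.4 with PBS (log2 difference 3.84, standard error 0.52, edgeR adjusted p = 0.00401) and 19.1 with LPS (log2 difference 4.26, standard error 0.53, adjusted p = 0.00387).

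**Figure D4:**
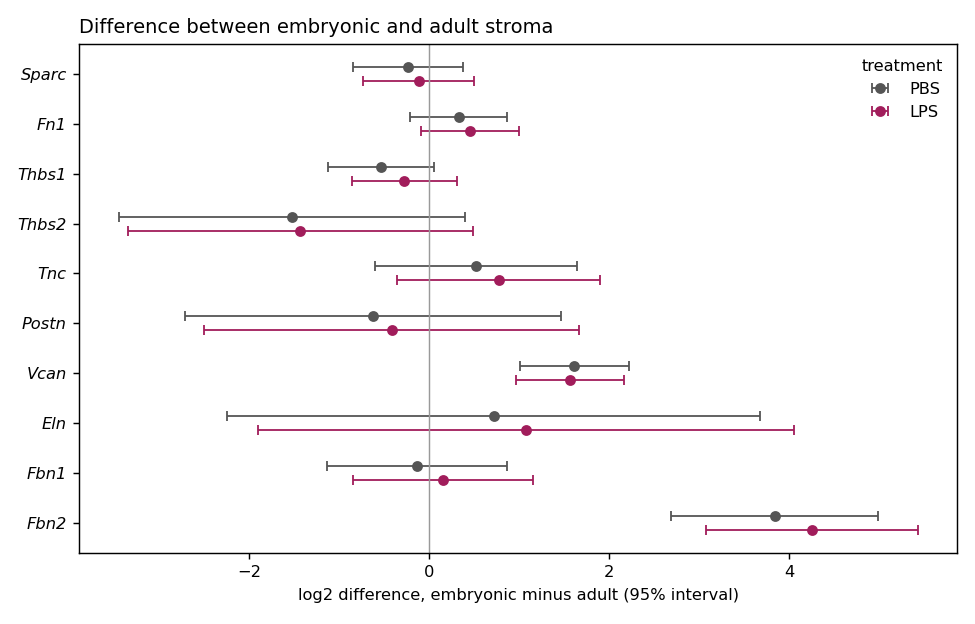
Log2 difference of embryonic minus adult stroma (horizontal) for each gene (vertical), with PBS in grey and with LPS in red. Points are fitted values without a block and bars are 95% intervals. The intervals of Fbn2 and Vcan lie above 0 in both treatments, and those of the other 8 genes include 0.

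Xist, a transcript made in female cells, was at 24.7 to 230 CPM in the embryonic libraries and had at most 1 count in any adult library. The sex of the cells therefore moved with the stage, and for every stage difference given here the stage and the sex of the cells cannot be told apart. Across the 12 libraries Xist was also among the 2 genes whose log2 CPM followed Fbn2 most closely (Pearson r = 0.988), after Slc24a3 (r = 0.996).

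The fibrillins differed in their balance. Fibrillin 1 was at 1157, 794 and 1408 CPM in embryonic PBS and at 1416, 660 and 1616 CPM in adult PBS, which overlapped, with a log2 difference of -0.14 (standard error 0.45, edgeR adjusted p = 0.922). Per kb of exon, Fbn2 made up 18.1%, 8.77% and 11% of the fibrillin counts in embryonic PBS cultures 1, 2 and 3 and 1.06%, 1.54% and 0.597% in adult PBS. With LPS its share was 7.83% to 15.1% in embryonic and 0.469% to 0.956% in adult stroma. All embryonic shares lay above all adult shares, yet Fbn1 gave the larger part of the fibrillin RNA in every library.

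**Figure D5:**
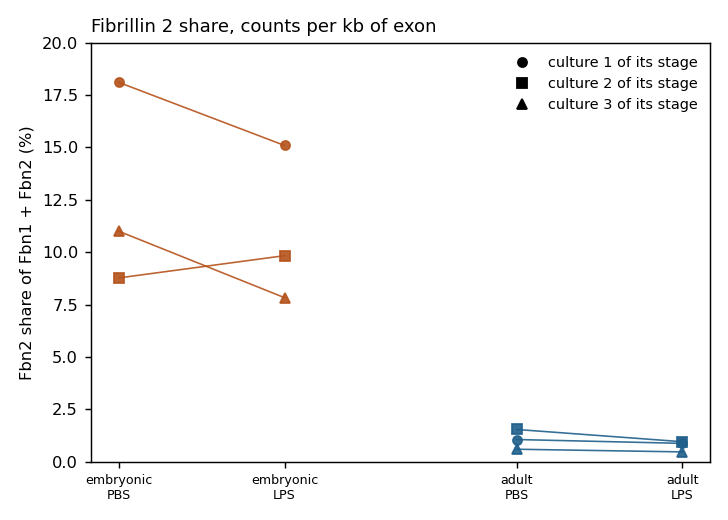
Share of Fbn2 in the sum of Fbn1 and Fbn2 counts per kb of exon, in percent (vertical, from 0), by group (horizontal), with a point for each library and lines joining the PBS and LPS libraries of a culture (orange embryonic, blue adult). The 6 embryonic libraries lie between 7.83% and 18.1% and the 6 adult libraries between 0.469% and 1.54%.

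Versican was 3.07-fold higher in embryonic than in adult stroma with PBS (log2 difference 1.62, standard error 0.27, edgeR adjusted p = 0.0124) and 2.96-fold higher with LPS (1.57, adjusted p = 0.0141). Its ranges did not overlap between the stages in either treatment. Adult stroma with LPS reached 41.1 to 65.7 CPM, which overlapped the 55.6 to 114 CPM of embryonic stroma with PBS. The PBS difference lost its call without adult PBS library 3 (edgeR adjusted p = 0.0608). With each treatment fitted alone, versican was not called (edgeR adjusted p = 0.0529 with PBS and 0.0531 with LPS).

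The thrombospondins showed no called difference between stages. Thbs1, a ligand of Cd36 and Cd47 and an activator of latent TGF-beta, was at 13805, 13104 and 6982 CPM in embryonic PBS and 17034, 14420 and 17656 CPM in adult PBS. The ranges were separate, with a log2 difference of -0.53 (standard error 0.26, edgeR adjusted p = 0.303). With LPS they overlapped, at 10580 to 14570 CPM in embryonic and 13635 to 18250 CPM in adult stroma.

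Thbs2, the related gene with a role in collagen fibril assembly, was at 279, 32.1 and 222 CPM in embryonic PBS and at 734, 229 and 561 CPM in adult PBS. Only the lowest adult culture, culture 2, lay within the embryonic range. The log2 difference was -1.52 with PBS (95% interval -3.44 to 0.41, edgeR adjusted p = 0.379) and -1.43 with LPS (adjusted p = 0.381). Without embryonic culture 2 it was -1.03 with PBS (edgeR adjusted p = 0.285). Thbs2 made up 0.243% to 3.06% of the counts of both thrombospondins per kb in embryonic PBS and 1.55% to 4.10% in adult PBS.

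Fibronectin and SPARC were not called between the stages. Fn1 was at 15339, 13874 and 14358 CPM in embryonic PBS and 9798, 10790 and 14115 CPM in adult PBS, with a log2 difference of 0.33 (95% interval -0.21 to 0.87, edgeR adjusted p = 0.529). The ranges overlapped through adult culture 3. Sparc was at 7781, 8708 and 8080 CPM in embryonic PBS and 11533, 6319 and 11046 CPM in adult PBS, with overlap through adult culture 2, and a log2 difference of -0.23 (95% interval -0.85 to 0.38, adjusted p = 0.729).

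Tenascin C was at 4446, 1448 and 3203 CPM in embryonic PBS and 2161, 2201 and 1954 CPM in adult PBS. Embryonic cultures 1 and 3 lay above the adult range and culture 2 lay below it. The log2 difference was 0.52 with PBS (edgeR adjusted p = 0.654) and 0.77 with LPS (adjusted p = 0.425). Without embryonic culture 2, a setting chosen after its values were seen, Tnc was called in both treatments, at 0.85 (edgeR adjusted p = 0.0228) and 1.20 (adjusted p = 0.00701). Vcan and Fbn2 were called in that setting too, at 1.61 and 4.18 with PBS, so that 3 of 10 members were called in each treatment, against 9.75% of all genes tested with PBS and 10.4% with LPS.

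Elastin and periostin varied widely between the embryonic cultures. Eln, the core of elastic fibres, was at 127, 6.12 and 469 CPM in embryonic PBS cultures 1, 2 and 3 and at 122, 6.89 and 569 CPM in the LPS libraries of the same cultures. The highest culture was 76.6-fold above the lowest with PBS, while LPS and PBS libraries of a culture differed by at most 1.21-fold. Of the 8750 genes with a mean of at least 10 CPM in embryonic PBS, 0.0343% had as wide a range. In adult PBS Eln was at 83.9, 169 and 111 CPM, all inside the embryonic range, and the log2 difference of 0.72 had a standard error of 1.33. Without embryonic culture 2 the embryonic PBS range was 3.71-fold and the log2 difference 1.28 (edgeR adjusted p = 0.289).

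Postn, a collagen-associated matricellular protein of fibroblasts, was at 1090, 89.2 and 1156 CPM in embryonic PBS and 1387, 818 and 1380 CPM in adult PBS. Its highest embryonic culture was 13-fold above its lowest, as wide a range as that of 0.537% of the same genes, and Thbs2 had an 8.67-fold range (1.76% of genes). The low culture was culture 2 for Eln, Postn and Thbs2 in both treatments. Between the stages the log2 difference of Postn with PBS was -0.62 (standard error 0.94, edgeR adjusted p = 0.798). Without embryonic culture 2 it was -0.10 (edgeR adjusted p = 0.879), and the embryonic PBS ranges of Postn and Thbs2 were 1.06-fold and 1.25-fold. Fbn1 spanned 1.77-fold and Sparc and Fn1 spanned 1.12-fold and 1.11-fold in the same libraries. Adult culture 2 was likewise the lowest of its stage for Thbs2, Postn, Sparc, Vcan, Fbn1 and Thbs1 in both treatments, with Thbs2 3.21-fold below the highest with PBS.

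Marker sums moved with those cultures. The 7 fibroblast and mesenchyme markers summed to 11799 and 10149 CPM in embryonic culture 2 against 18233 to 21988 CPM in the other embryonic libraries, and to 10736 and 10259 CPM in adult culture 2 against 17478 to 17804 CPM in the other adult libraries. The 4 mesothelial markers summed to 445 and 345 CPM in embryonic culture 2 against 109 to 122 CPM in the other embryonic and 270 to 1039 CPM in the adult libraries, while adult culture 2 was the one high in endothelial markers. The part of these cells in the low matrix levels was not tested.

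Some members followed each other across the 12 libraries, which share 6 cultures and are not independent. The Pearson correlation of log2 CPM was 0.938 for Thbs2 and Postn, 0.872 for Postn and Eln, and 0.802 for Vcan and Fbn2. Thbs2, Postn and Eln were all far lowest in embryonic culture 2, so values that involve them rest in part on that culture. They were not recomputed without it. In adult PBS, Eln and Postn did not run together: culture 2 was the highest for Eln (169 CPM) and the lowest for Postn (818 CPM). The genes outside the list with the closest pattern were Itga8 for Postn (r = 0.992), Itga11 for Thbs2 (r = 0.990), Ltbp4 for Eln (r = 0.992), Ctgf for Thbs1 (r = 0.976), Setbp1 for Tnc (r = 0.967) and Adc for Vcan (r = 0.964). For the others they were Sparc with Fosb (r = 0.943), Fbn1 with Pcolce (r = 0.939) and Fn1 with Ubn2 (r = 0.909).

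The related lists gave the setting of the stage difference. Of 18 tested genes of elastic fibre assembly, 2 were lower in embryonic than adult stroma with PBS and none higher. Of all tested genes, 2.57% were called lower and 1.51% higher. The 2 genes were Loxl3, a lysyl oxidase that cross-links elastin and collagen (-2.22, edgeR adjusted p = 0.0172), and Ltbp2 (-1.54, adjusted p = 0.0223). Loxl3 was at 12.4, 8.96 and 14.9 CPM in embryonic and 41.2, 63.9 and 63.8 CPM in adult PBS. Ltbp2 was at 320, 436 and 322 CPM and 1150, 705 and 1288 CPM, with no overlap for either. Library ranges were separate with PBS for 24.5% of all tested genes. The median log2 difference of the 18 genes was -0.21, against 0.02 over all tested genes.

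Of 12 tested genes of the other matricellular families, Smoc1 and Wisp2 (Ccn5) were lower in embryonic PBS, at -6.33 (edgeR adjusted p = 0.0102) and -4.33 (adjusted p = 0.0167). Tgfbi, a periostin relative, was higher at 4.25 (edgeR adjusted p = 0.0394). Against these stand 2.57% of all tested genes called lower and 1.51% called higher with PBS. Smoc1, a relative of SPARC, was at 0.878, 0.762 and 6.02 CPM in embryonic and 121, 314 and 178 CPM in adult PBS. Of 14 matrix receptors, Cd36, a scavenger receptor that binds thrombospondin 1, was higher in embryonic PBS, with a log2 difference of 6.03 that is given with no test because the gene passed the filter on low counts through the embryonic groups alone. Itgb8 was lower at -4.70 (edgeR adjusted p = 0.0102), with 2 to 18 counts in the embryonic PBS and 129 to 213 in the adult PBS libraries. Cd36 is also carried by macrophages and endothelial cells, and it was at 9.90, 23.7 and 53.7 CPM in embryonic PBS cultures 1, 2 and 3, in the same order as the macrophage and leukocyte marker sum (176, 356 and 2254 CPM). The part of macrophages in that difference was not tested. None of the 9 tested genes of the versican and hyaluronan network was called between the stages with PBS, where 1 had an unadjusted p under 0.05 in edgeR.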

How the data were processed

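The members and the lists of related genes were chosen with earlier results of these data known, and the deposited files were analysed as follows. Per the labels and the study's methods, the authors trimmed single-end reads, mapped them with STAR to the mouse genome (GRCm38.p6, mm10), allowed at most 1 mismatch and kept uniquely mapped reads, so reads shared by near-identical genes are missing. The deposited values are raw counts per gene symbol without normalization, in 1 table per library. The counts on the sense strand were used; the opposite strand held 1.14% to 1.98% of gene counts. No column belonged to other samples.

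The tests ran in edgeR 4.0.16 under R 4.3.3 with limma 3.58.1, DESeq2 1.42.0 served for an alternative, and figures were drawn with matplotlib 3.10.9 in Python 3.11.15. A gene was kept where every library of some group exceeded 0.5 CPM (13038 of 23329). TMM factors were 0.895 to 1.1. All 12 libraries were fitted in 1 model of the 4 groups, so that they share 1 estimate of the spread, and genes were called at a Benjamini-Hochberg adjusted p under 0.05 in the quasi-likelihood test, with no fold threshold. The standard error is the absolute log2 fold change divided by the square root of F, and log2 CPM used a prior count of 2. Nothing in the labels states that same-numbered libraries came from 1 culture. The pairing was read from the numbers and the deviations from the group means correlated at 0.610 to 0.849 in the 6 pairs, so the fit with the culture as a block is given beside the LPS results. Without the block the p-values measure the spread between the libraries of a group, with both libraries of a culture counted as separate. With the culture as a block they measure how much the LPS difference varied from culture to culture.

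Named genes are the 10 members, up to 3 called genes of each related list with the largest change in the LPS responses and the PBS stage comparison, and the 2 genes most correlated with each member, of which the closest is printed, or both where stated. List genes called with the block alone, and the uncalled Adamts1, Adamts5 and Tnfaip6, were named after their values were seen. List counts for LPS leave out genes that passed the filter through 1 group alone, a choice made after seeing the data. Marker lists were written from general knowledge. Exon lengths are the union of GENCODE vM21 basic exons. Alternatives were the block, DESeq2 and its size factors, library totals, no filter, an adjusted p under 0.01, a fold threshold of 2 on the log2 scale, counts of either strand, each stage or treatment alone, and each library or culture left out. Scripts were tested on simulated counts. Depth sets the floor of 3 counts, which covers counting error only. No library repeated another, since those of a group differed beyond counting noise.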

Additional observations from a re-analysis of the deposited data

Results flagged for a closer look

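Fibrillin 2 was picked out because its LPS response had opposite directions in the 2 stages, higher in 3 of 3 embryonic and lower in 3 of 3 adult cultures. The embryonic direction depends on the TMM factors, since with library totals the log2 fold change was -0.032 (edgeR without the block). The log2 difference between the responses was 0.42 with the culture as a block, with an unadjusted p of 0.00639 and an adjusted p of 0.263 in edgeR, and it was not called. Adult Fbn2 levels were 7.0 to 14 CPM, from 192 to 379 counts per library.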

How the results depend on the processing

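The alternatives gave 1240 gene results, each 1 member in 1 comparison and 1 setting. Of these, 86 turned the sign of the member's log2 value, and 0 of the 86 were called. The 1240 include the settings that change only a threshold, where the sign could not turn. The levels in CPM moved by less than 1 SD in all 80 recomputations. With the culture as a replicate block, 1 member was called for LPS in each stage, with a log2 difference of 0.010 between the versican responses. DESeq2 also called 1 in each stage. The block with a culture left out called 1 member in embryonic stroma, or 3 without embryonic culture 2 (1989 of all genes), and 0 or 1 in adult stroma, and gave versican response differences of 0.10, 0.18, 0.015 and 0.16 without embryonic culture 1 or 2 or adult culture 1 or 3. It also gave adult Fn1 -0.00036 without adult culture 2 and adult Sparc -0.018 without adult culture 3. Library totals without TMM factors gave Sparc -0.0069, Fbn2 -0.032, Thbs2 -0.046 and Eln -0.017 in the embryonic and Sparc -0.035, Thbs2 -0.025 and Postn -0.028 in the adult LPS response. Adult Sparc was -0.0020 by DESeq2 and by its size factors in edgeR, and -4.719e-04 with no filter. With single libraries left out, the LPS log2 values ranged from -0.32 to 0.52 for embryonic Fbn2, from -0.090 to 0.29 for adult Fn1 and from -0.22 to 0.24 for adult Sparc, and the differences between the responses from -0.28 to 0.22 for Vcan and from -0.0088 to 0.83 for Fbn2. In the same settings the PBS stage difference ranged from -0.43 to 0.11 for Fbn1 and from -0.87 to 1.28 for Eln, and 1 or 2 members were called in it. Between stages, 1 member was called with PBS and 1 with LPS at an adjusted p under 0.01, at an absolute log2 value of 2 or more, and with each treatment fitted alone, where Vcan had adjusted p-values of 0.0529 and 0.0531 in edgeR. Leaving out embryonic culture 2 was chosen after its values were seen: it called 3 members with each treatment, beside 1291 of all genes with PBS and 1379 with LPS, and gave Fbn1 0.050 with PBS and Postn 0.12 with LPS. Across stages libraries share only a number, with correlations of their deviations from -0.306 to -0.00198. Used as a replicate block it also called Thbs2, at -1.84 with PBS and -1.74 with LPS (edgeR adjusted p = 0.0208 and 0.0237), turned Eln to -0.28 with PBS, and raised the called genes from 532 to 891 and from 692 to 1059. Counts of all called genes depended on the model: embryonic LPS 358, 1635 with the culture block, 684 by DESeq2, 119 at an adjusted p under 0.01 and 4 in the stage alone, and adult LPS 79, 808, 294, 16 and 227. For the stages they were 1552 with PBS and 1704 with LPS by DESeq2, 102 and 96 at an adjusted p under 0.01, 291 and 385 at a log2 value of 2 or more, and 173 and 70 with a treatment alone. The cause of these changes was not tested. With 3 cultures a group, wide intervals such as those of Eln and Postn cannot show small stage differences, and the depth limits adult Fbn2, which had 192 to 379 counts per library.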
